A study of Mus musculus with 54 samples.

Results

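The 7 complement components C1qa, C1qb, C1qc, C3, C4b, Cfb and Cfp were taken by their symbols from a table of raw counts that lists 16632 genes. All 7 are in the table, and all 7 were among the 13169 genes that passed a filter on low counts and were tested. They are described by gene in 14 groups of primary microglia from C57BL/6 mice. For each member the level is given per replicate number, the number from 1 to 4 that the sample titles share across groups.

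Every group came from microglia of newborn mice, cultured in flasks that each pooled the cells of 2 brains, in medium with L929 cell supernatant, and shaken off the astrocyte layer beneath them. Untreated_Ctrl cells received nothing further. The aSyn_Donor cells took up fluorescently labelled alpha-synuclein, the protein that aggregates in Parkinson's disease, at 1 µM for 14 h, and were not co-cultured. Donors were given the same alpha-synuclein and then mixed with acceptors for 15, 30, 60, 150 or 300 min, and acceptors were stained with a violet cell dye for 15 min and given no alpha-synuclein of their own. After mixing, flow cytometry separated both populations again, so Donors and Acceptors of one time came from the same dish. The labels also name Donors and Acceptors at 0 min, for which the protocol gives no mixing time. The design thus asks what alpha-synuclein alone changed, how each mixed population differed from aSyn_Donor or Untreated_Ctrl, and how the populations differed from each other. Each group holds 3 or 4 replicate numbers, and 54 libraries gave 52 units, because 2 pairs of untreated libraries with the same number were summed. Libraries held between 7807389 and 15537493 counts. All 11 markers of microglia were detected, although Tmem119 and P2ry12 were low, from 1.00 to 4.63 CPM (counts scaled to library size) and from 4.22 to 12.3 CPM in Untreated_Ctrl, while Cx3cr1 ran from 191 to 485 CPM.

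Complement is a protein cascade that tags targets for clearance. C1q, a molecule built from the chains A, B and C, opens the classical route, and C4b, with C2, forms its convertase. All routes meet at C3, whose fragments coat targets and are read by receptors on phagocytes. Factor B (Cfb) pairs with C3b in the alternative pathway, the amplification loop of C3 cleavage, and properdin (Cfp) stabilises the enzyme that they form. In the brain, microglia are the main source of C1q, and C1q and C3 are known for marking synapses that microglia remove.

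The members lie on 3 chromosomes of the mouse genome (GRCm38, GENCODE M21), all on the minus strand. The C1q genes sit side by side on chromosome 4 within 18675 bp: C1qb at chr4:136880129-136886187, C1qc at chr4:136889804-136893065 and C1qa at chr4:136895917-136898803. On chromosome 17, C4b is at chr17:34728380-34743882, Cfb is at chr17:34856374-34862518, with 86 bp between it and C2, and C3 is at chr17:57203970-57228136. Cfp is at chrX:20925454-20931555. The table of RefSeq promoters (GRCm38.p6) held 4 of the 7 members. The 250 bases before the annotated start are shown for C3, the member with the clearest difference between groups, and for C1qb, 1 of the 3 C1q genes, whose levels moved together. Capitals mark motif matches, and positions are counted from the start, negative before it.

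C3, chr17:57228137-57228386, minus strand: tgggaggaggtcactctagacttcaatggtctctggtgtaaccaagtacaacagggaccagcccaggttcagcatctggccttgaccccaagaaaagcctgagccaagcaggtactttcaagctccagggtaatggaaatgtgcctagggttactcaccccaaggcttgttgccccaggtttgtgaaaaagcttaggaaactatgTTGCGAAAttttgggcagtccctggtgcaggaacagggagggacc

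C1qb, chr4:136886201-136886450, minus strand: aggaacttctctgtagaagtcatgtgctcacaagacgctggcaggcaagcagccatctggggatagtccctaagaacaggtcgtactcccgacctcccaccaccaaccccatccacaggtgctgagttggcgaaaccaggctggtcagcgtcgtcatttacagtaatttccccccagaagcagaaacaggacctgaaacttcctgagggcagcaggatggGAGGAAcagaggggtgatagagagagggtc

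Motifs of 5 kinds were searched on both strands in the 300 bases from 250 before to 50 after each start, and no match overlapped another. The C3 window holds TTGCGAAA from -45 to -38, a match to the C/EBP motif TTGCNNAA, and TATAAA from 15 to 20, after the annotated start. C1qb holds the PU.1 core GAGGAA from -30 to -25. C1qc holds the same core in reverse, TTCCTC, from -193 to -188, and Cfp holds it in reverse from 7 to 12 and from 23 to 28. None of the 4 windows holds the kappaB motif (GGG and TTCC with 3 bases between them) or the interferon element (GAAA and GAAA with 2 bases between them). Of 32851 promoters of this length, 28.3% hold the PU.1 core, 10.8% the C/EBP motif, 5.56% the kappaB motif, 3.44% the interferon element and 13.6% TATAAA. These matches describe the letters and not binding.

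C3, the central component, had the clearest difference. Levels are CPM, with library sizes corrected by TMM factors. In Untreated_Ctrl, C3 stood at 40.2, 248.3, 151 and 25.2 CPM in replicates 1 to 4. In aSyn_Donor it stood at 143, 459, 565 and 532 CPM. Every aSyn_Donor value was above the untreated value of its own number, while the groups as wholes overlapped, since untreated replicate 2 lay above aSyn_Donor replicate 1. The same-number folds were 3.56, 1.85, 3.74 and 21.2. By edgeR's quasi-likelihood test without a block, the log2 fold change was 1.87 (SE 0.81, n = 4 against 4) with an adjusted p of 0.217, which does not pass 0.05. With the replicate number as a block, edgeR gave 2.09 (SE 0.45) and an adjusted p of 0.00103, so C3 rose in that fit. Left out 1 at a time, the 4 numbers gave blocked log2 fold changes from 1.42 to 2.76, and C3 passed in all 4. The lowest came without replicate 4 and the highest without replicate 2.

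Donors stood near aSyn_Donor of the same number, with folds from 0.893 to 1.29 in 22 pairs. In the Donors, C3 ran from 152 to 180 CPM in replicate 1, from 438 to 481 in replicate 2, from 648 to 729 in replicate 3 and from 475 to 520 in replicate 4, whatever the time. Within a number, the highest Donor value was at most 1.19 times the lowest. The level among Donors thus went with the replicate number, and no step with time is seen in these ranges. Passage also differed between the numbers, at 3, 1, 2 and 2 in replicates 1 to 4, and its part was not tested. Acceptors were lower. They ran from 58.0 to 90.6 CPM in replicate 1 and from 157 to 216 in replicate 2. In replicate 4 they ran from 42.3 to 54.4 CPM up to 150 min and stood at 104 at 300 min. In replicate 3 the level was 165 CPM at 0 min and 495, 472, 549 and 456 CPM at 15, 30, 60 and 150 min.

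**Figure D1:**
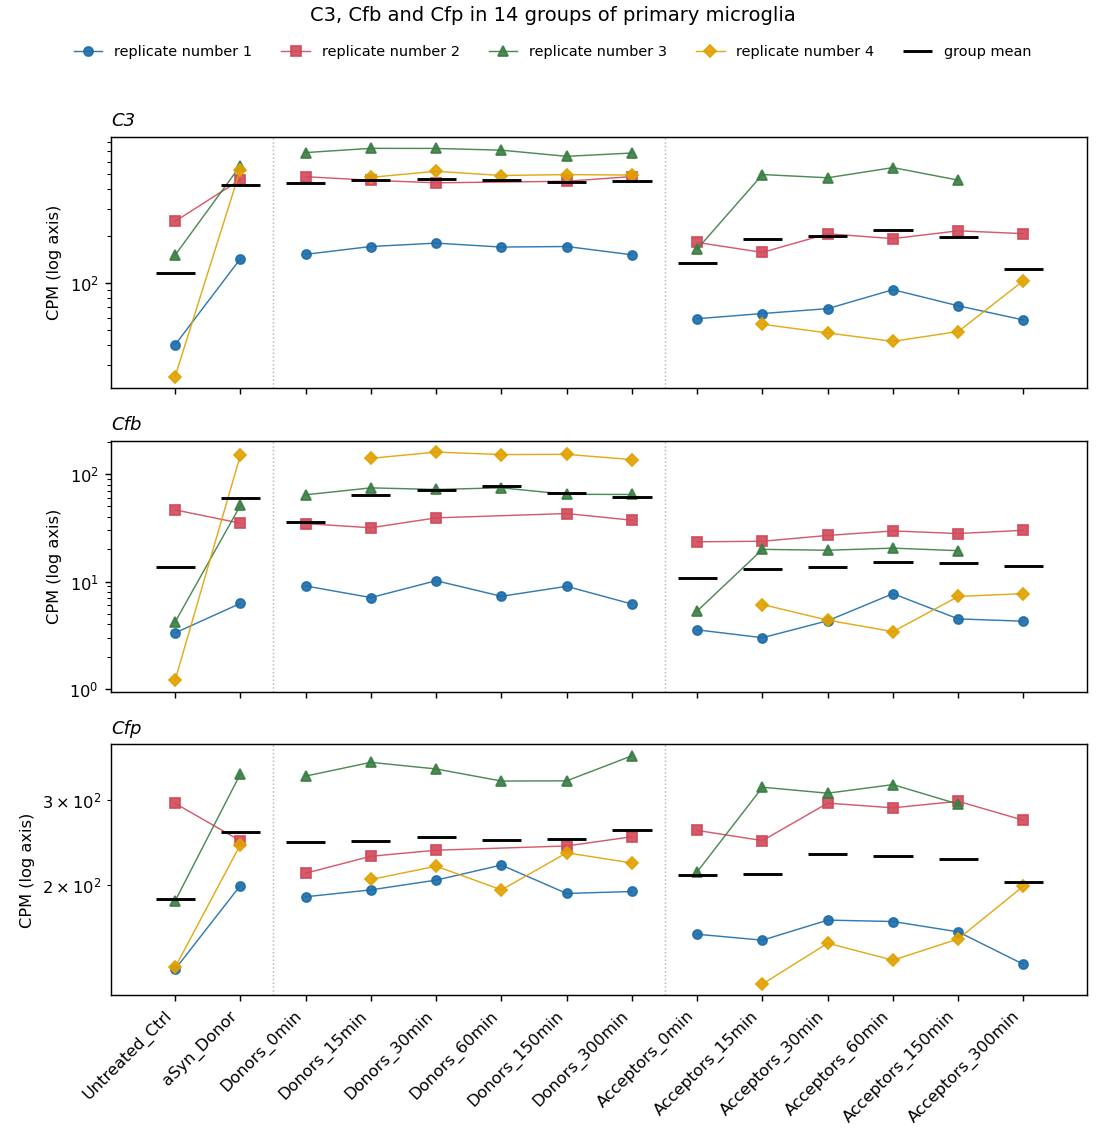
CPM on a log axis of C3, Cfb and Cfp in 14 groups, 1 point per unit, with a colour and marker for each replicate number, lines joining points of the same number and a black bar at the group mean. C3 in Donors stayed between 152 and 729 CPM with 1 level per number, and replicate 3 Acceptors left the other Acceptors from 15 min on.

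C3 was higher in Donors than in Acceptors in 21 of 21 pairs with the same number and time. The folds ran from 1.29 to 11.6, with a median of 2.62, and without replicate 4, from 1.29 to 4.15 in 16 of 16 pairs. Replicate 3 had the smallest folds, with a median of 1.47, and replicate 4 the largest, with a median of 10.1. Within each of the 4 numbers, the lowest alpha-synuclein-bearing unit lay above the highest unit not given it, by 565 against 549 CPM at the narrowest, in replicate 3. C3 was the only member with no overlap in any number, as were 0.691% of all tested genes in that direction. Adgre5, a gene picked after its values were seen because alpha-synuclein-bearing cells of all numbers carried it, stood between 6.74 and 9.89 CPM in the replicate 3 Acceptors, including 6.82 at 0 min. It was at 3.77 CPM in Untreated_Ctrl of that number, between 1.79 and 5.95 CPM in the Acceptors of the other numbers and between 59.3 and 113 CPM in replicate 3 Donors. The replicate 3 Acceptors were thus the highest Acceptors for Adgre5 at each of their times, and below all Donors in it. For C3 they were the highest from 15 to 150 min, while at 0 min replicate 2 stood at 182 CPM against their 165. Whether the Adgre5 and C3 levels are linked was not tested.

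By edgeR without a block, none of the 6 comparisons of Donors with Acceptors called C3. The log2 fold changes lay between 1.06 and 1.88 with adjusted p between 0.569 and 0.797. With the block, C3 passed at 15 min (1.57, SE 0.44, adjusted p = 0.0199), at 30 min (1.55, SE 0.44, adjusted p = 0.0183) and at 150 min (1.46, SE 0.44, adjusted p = 0.0421) by edgeR. At 0, 60 and 300 min the blocked changes were 1.57, 1.43 and 1.56, with adjusted p of 0.0679, 0.0547 and 0.0891. The sizes at called and uncalled times differed by less than 1 SE. The called times held 4 same-number pairs each and the uncalled times 3 each, so the calls do not mark out these times. Over 5 blocked fits, with all numbers or with 1 left out, C3 was called in 3 fits at each of 15, 30 and 150 min. It was called in 1 fit at 0 min, in 1 at 300 min and in 0 at 60 min. Blocked fits without replicate 1 or without replicate 2 called no member in these comparisons.

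**Figure D2:**
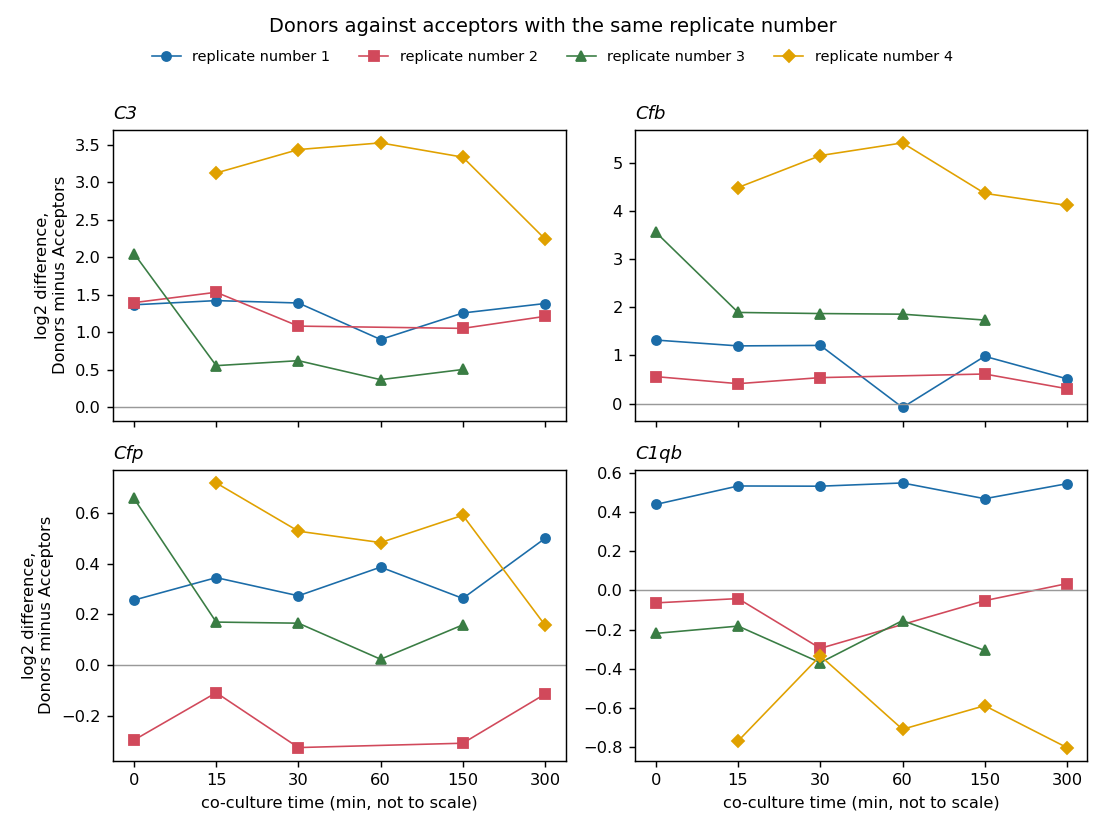
Difference in log2 CPM, Donors minus Acceptors, for units of the same replicate number and co-culture time, for C3, Cfb, Cfp and C1qb, with times spaced evenly. All 21 points for C3 lie above 0, while C1qb is above 0 in all 6 pairs of replicate 1 and below 0 in all pairs of replicates 3 and 4.

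Cfb, the factor B of the alternative pathway, followed C3 in 3 of the 4 numbers and spread over a far wider range. Untreated_Ctrl stood at 3.33, 46.5, 4.20 and 1.21 CPM in replicates 1 to 4, and aSyn_Donor at 6.26, 34.9, 51.1 and 150 CPM. Replicate 2 was the exception: its untreated value, from 2 libraries at 44.1 and 50.1 CPM, was the highest of all units not given alpha-synuclein. The same-number folds were 1.88, 0.751, 12.2 and 124. The fold of 124 rests on a low untreated value, from 2 libraries that differed, at 1.99 and 0.437 CPM on 26 and 6 counts. By edgeR, the log2 fold change was 2.11 (SE 1.08) without the block, with an adjusted p of 0.311, and 1.95 (SE 0.78) with it, with an adjusted p of 0.0739. Cfb was not called in either fit. Replicates 2 and 4 each moved the value by more than 1.5 times in fold. Without replicate 2 the blocked change was 4.11 with an adjusted p of 0.00775 by edgeR, and without replicate 4 it was 0.75 with an adjusted p of 0.370. Cfb shares exons on the same strand with the gene model Gm20547, so reads of the 2 could be split in counting and the values are uncertain to that extent.

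In Donors, Cfb had a level for each number again, with medians of 8.17, 37.2, 68.4 and 152 CPM in replicates 1 to 4. In Acceptors the medians were 4.30, 27.4, 19.6 and 6.12 CPM. Replicate 3 Acceptors were at 5.32 CPM at 0 min and between 19.4 and 20.5 CPM afterwards, the same step that C3 showed there. Donors were above Acceptors in 20 of 21 same-number pairs. The exception was replicate 1 at 60 min, with a fold of 0.946. The highest fold, 44.4, came from replicate 4, and without that number 15 of 16 pairs were higher, with folds up to 12.1. The 6 log2 fold changes by edgeR ran from 1.74 to 2.35 without the block (adjusted p 0.395 to 0.853) and from 1.81 to 2.11 with it (adjusted p 0.0669 to 0.297), and none was called.

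Cfp, which encodes properdin, differed by less. Untreated_Ctrl stood at 134, 295, 186 and 136 CPM, and aSyn_Donor at 200, 247.2, 340 and 242.7 CPM. As with Cfb, replicate 2 was lower after alpha-synuclein, and the other 3 numbers were higher, with folds from 1.49 to 1.83. By edgeR, the log2 fold change was 0.45 (SE 0.32, adjusted p = 0.488) without the block. With it, edgeR gave 0.48 (SE 0.16) and an adjusted p of 0.0304, so Cfp rose in that fit. That call was lost without replicate 1, 3 or 4 (adjusted p 0.145, 0.220 and 0.175) and held without replicate 2 (0.79, adjusted p = 0.000728). In co-culture, Cfp was higher in Donors in 16 of 21 same-number pairs, in all pairs of replicates 1, 3 and 4 and in 0 of 5 of replicate 2. No comparison of Donors with Acceptors called it in either fit.

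**Figure D3:**
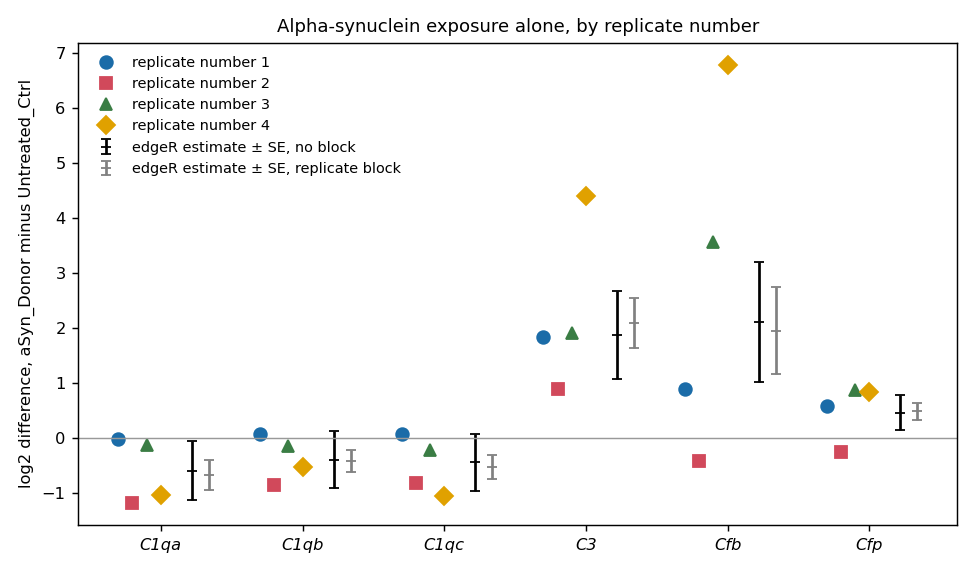
Difference in log2 CPM, aSyn_Donor minus Untreated_Ctrl, for each replicate number (coloured markers), and edgeR's log2 fold change ± SE without a block (black) and with the replicate block (grey), for 6 members. C3 lies above 0 in all 4 numbers, Cfb and Cfp in 3 of 4, and C4b is left out because its counts are too low.

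All 3 C1q genes were abundant, and their levels followed the replicate number more than the group. Untreated_Ctrl held C1qb at 2614, 5256, 2950 and 1268 CPM in replicates 1 to 4, and aSyn_Donor at 2733, 2893, 2667 and 877 CPM. For C1qa the values were 1268, 3093, 1770 and 888 CPM in Untreated_Ctrl and 1248, 1363, 1610 and 432 CPM in aSyn_Donor. For C1qc they were 2190, 4024, 2301 and 1172 CPM against 2308, 2278, 1989 and 565 CPM. The groups overlapped for all 3 genes, with untreated replicate 2 high and replicate 4 low in both groups. Pairs with the same number were nearly level in replicates 1 and 3, with folds from 0.864 to 1.05, and lower after alpha-synuclein in replicates 2 and 4, with folds from 0.441 to 0.692. The 2 untreated libraries of replicate 2 themselves differed for C1qa, at 2360 and 4049 CPM.

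By edgeR the log2 fold changes were -0.59 for C1qa, -0.40 for C1qb and -0.44 for C1qc, with SEs of 0.54, 0.52 and 0.52 and adjusted p of 0.619, 0.748 and 0.718. With the block they were -0.67, -0.41 and -0.53, with SEs of 0.27, 0.20 and 0.22 and adjusted p of 0.0740, 0.140 and 0.0792 by edgeR. None passed. The block without replicate 1 was the only setting that called them lower (-0.85, -0.54 and -0.71, with adjusted p of 0.0204, 0.0422 and 0.0160).

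**Figure D4:**
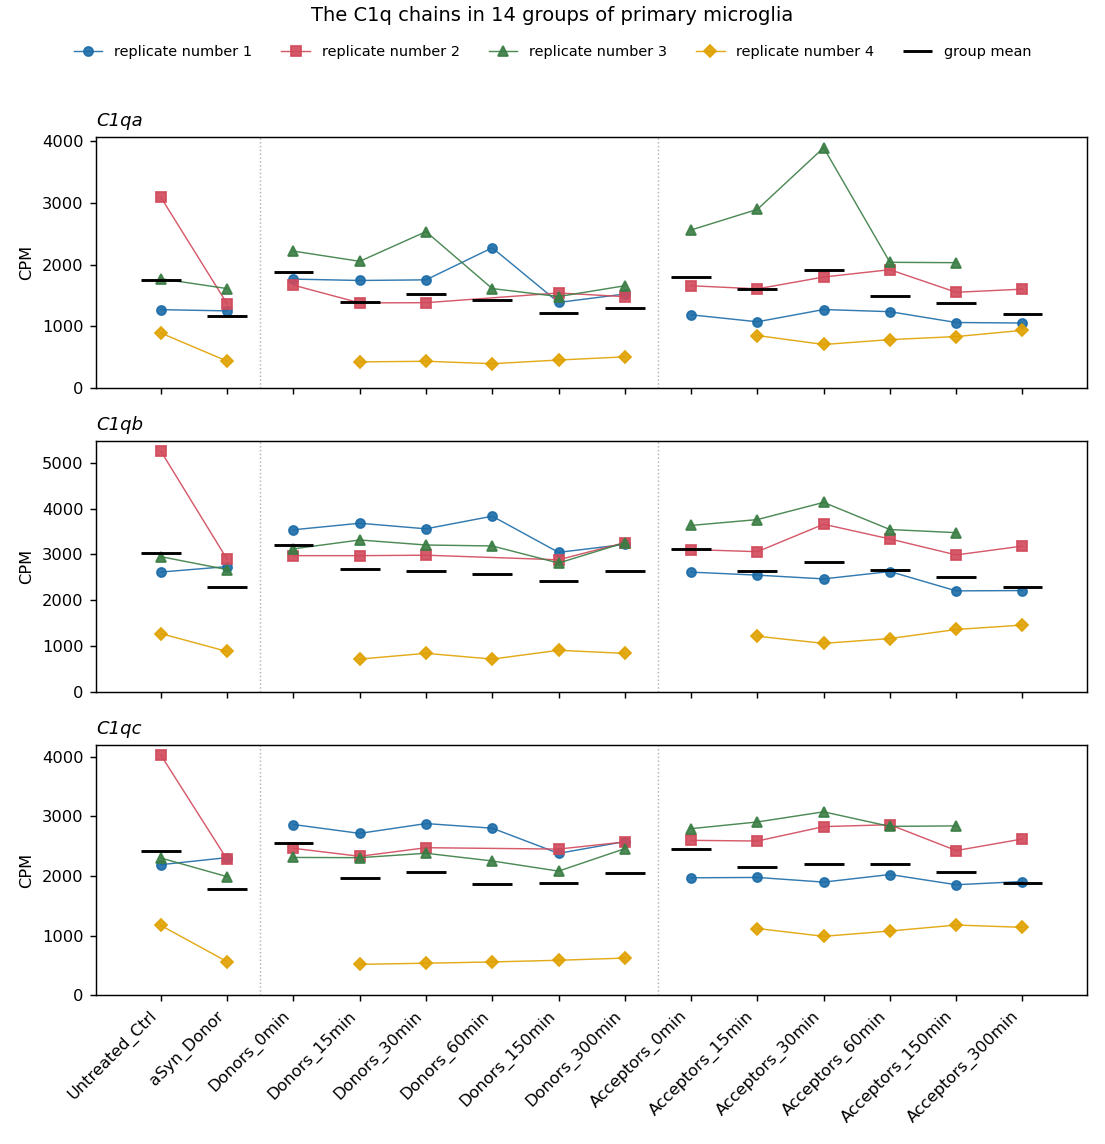
CPM on a linear axis from 0 of C1qa, C1qb and C1qc in 14 groups, 1 point per unit, coloured by replicate number, with a black bar at the group mean. Replicate 4 lies lowest in all groups that hold it, from 710 to 1454 CPM for C1qb.

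Replicate 4 stood apart for the C1q genes. Its C1qb units ran from 710 to 1454 CPM, and those of the other 3 numbers from 2202 to 5256 CPM. Within replicate 4, alpha-synuclein-bearing cells were lower still. Their C1qc ran from 521 to 626 CPM against 990 to 1179 CPM in cells not given it, without overlap. Replicate 1 had the opposite order, with C1qc from 2308 to 2878 CPM in bearing cells against 1854 to 2190 CPM. Donors exceeded Acceptors for all 3 genes in 6 of 6 pairs of replicate 1 and in 0 of 10 pairs of replicates 3 and 4. No comparison of Donors with Acceptors called a C1q gene, and the blocked log2 fold changes by edgeR lay between -0.32 and 0.12.

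Replicate 4 also differed in measures outside the members. The ribosomal precursor Rn45s took 13.4 to 22.3% of its counts, against 1.42 to 13.5% elsewhere. The library numbers in its sample titles form a series apart from those of the other 3 replicate numbers. The summed level of 11 microglia markers was 3655 CPM in its untreated unit, 1788 CPM in its aSyn_Donor unit, 1564 to 1837 CPM in its Donors and 3191 to 3569 CPM in its Acceptors. In replicates 1 to 3 that sum ran from 3528 to 5579 CPM. Within replicate 4 the marker sum and the C1q genes were thus both lower in alpha-synuclein-bearing cells. In bulk RNA, fewer cells of a type and less RNA per cell cannot be told apart. The sum of the 2 neutrophil markers measured, of 5, was 0.188 CPM in its untreated unit, 7.68 CPM in its aSyn_Donor unit, 4.76 to 9.40 CPM in its Donors and 0.405 to 1.25 CPM in its Acceptors, so it was higher where C3 and Cfb were. In replicates 1 to 3 that sum was at most 2.16 CPM. The part of these measures in the C1q, C3 and Cfb values was not tested. The blocked change of C3 without replicate 4 was 1.42 (SE 0.26, adjusted p = 0.000317 by edgeR).

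The 3 chains kept fairly steady proportions. Counts of C1qc per count of C1qb had medians of 0.791, 0.824, 0.746 and 0.787 in replicates 1 to 4. C1qa per C1qb had medians of 0.475, 0.519, 0.603 and 0.606, and its highest ratio, 0.942, was in Acceptors at 30 min of replicate 3. There C1qa reached 3898 CPM, its highest level in any unit. Reads came from transcript ends, so the ratios were not divided by length, and they compare counts and not molecules of protein.

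C4b, the mouse C4 gene of the classical pathway, was near the limit of detection. It ranged from 0 to 36 counts per unit, or 0 to 1.57 CPM, and 3 counts correspond to 0.193 to 0.384 CPM in a single library. In Untreated_Ctrl it had between 5 and 36 counts (0.264 to 1.57 CPM), and in aSyn_Donor between 0 and 11 (0 to 0.782 CPM). Untreated replicates 2 and 4 were sums of 2 libraries, so their counts come from greater depth. In Donors at 30 min C4b had 0 in all 4 units, which allows up to 3 counts per unit. Intervals and floors of this kind cover counting error only. C4b and its neighbour C4a are near-identical copies, so their counts are uncertain, and no fold is given for this gene.

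Counted over the members, edgeR without the block called 0 of 7 after alpha-synuclein alone, where 2.5% of all tested genes were called. Of the 7, 1 (C3) had an unadjusted p under 0.05, as had 17.1% of all tested genes, and DESeq2 also called 0. The members' median log2 fold change was -0.40, against -0.04 over all tested genes. With the block, 2 of 7 were called, C3 and Cfp, both higher, where 19.2% of all tested genes were called. A share of 2 in 7 is not far from that background. All 7 had an unadjusted p under 0.05 with the block, against 32.5% of all tested genes.

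For Donors against Acceptors, edgeR called 0 of 42 member tests over the 6 times without the block, and DESeq2 also called 0. Of all gene tests in these comparisons, 0.427% were called. An unadjusted p under 0.05 was reached in 5 of the 42, against 9.13% of all gene tests. With the block, 3 of 42 were called, against 6.31% of all gene tests, and 13 had an unadjusted p under 0.05, against 21.4%. The 3 calls were those of C3 at 15, 30 and 150 min, where 9.57, 10.8 and 5.19% of all tested genes were called.

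Comparing the mixed populations with aSyn_Donor or Untreated_Ctrl gave no call. These comparisons do not isolate co-culture. Acceptors also carried the violet dye, which Untreated_Ctrl did not, and the 0 min groups have no stated mixing time. For Donors against aSyn_Donor, edgeR called 0 of 42 member tests with or without the block, and DESeq2 0. Of all gene tests, 0.00506% were called without the block and 0.0506% with it. In each fit 1 member test had an unadjusted p under 0.05, against 1.75 and 4.84% of all gene tests. For Acceptors against Untreated_Ctrl, edgeR called 0 of 42 in either fit and DESeq2 0, against 0.0532 and 2.71% of all gene tests. There 1 member test had an unadjusted p under 0.05 without the block and 3 had one with it, against 6.78 and 17% of all gene tests. For C3, same-number Acceptors were above Untreated_Ctrl in 6 of 6 pairs of replicate 1, 5 of 5 of replicate 3 and 5 of 5 of replicate 4, and in 0 of 6 of replicate 2. The median fold was 1.69, and 1.47 without replicate 4. These comparisons share the untreated and the aSyn_Donor units, so their values are not independent of the comparison of those 2 groups.

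No member was called for a change with time. The edgeR tests over the 6 times called 0 of 7 in Donors (0.0607% of all tested genes), 0 of 7 in Acceptors (0.00759%) and 0 of 7 for the difference between the populations (0%), with no unadjusted p under 0.05. With the block edgeR also called 0 of 7 in each, where 0.577, 0.137 and 0.0456% of all tested genes were called, and DESeq2 called 0. C4b alone then had an unadjusted p under 0.05, in Donors and for the difference, on the low counts given above. The difference between bearing and other cells was also compared without and with co-culture. For C3 the log2 difference of differences was 0.49 (95% interval -1.23 to 2.21), and 0.56 (-0.39 to 1.52) with the block, and edgeR called 0 of 7 members in either fit, where 0 and 1.34% of all tested genes were called. No member had an unadjusted p under 0.05 there, and DESeq2 called 0.

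For C3, the 7 alpha-synuclein-bearing groups had means from 425 to 466.4 CPM and the 7 others from 116 to 218 CPM. It ran from 466.4 ± 226.4 CPM in Donors at 30 min (SD, n = 4) to 116 ± 105 CPM in Untreated_Ctrl (SD, n = 4). Cfb ran from 77.96 ± 72.43 CPM in Donors at 60 min (SD, n = 3) to 10.8 ± 11.0 CPM in Acceptors at 0 min (SD, n = 3). Cfp ran from 260 ± 77.2 CPM in Donors at 300 min (SD, n = 4) to 188 ± 75.7 CPM in Untreated_Ctrl (SD, n = 4). For C1qa the range was 1917 to 1163 CPM, for C1qb 3210 to 2281 CPM and for C1qc 2546 to 1785 CPM. For every member, all 13 pairs of neighbours in that order overlapped and differed by no more than the larger SD. These SDs hold the spread between replicate numbers, within which C3 did not overlap between bearing and other cells. The group means also rest on unlike sets of numbers. Donors and Acceptors at 0 min lacked replicate 4, Donors at 60 min replicate 2 and Acceptors at 300 min replicate 3. The highest C1qb and C1qc means, both in Donors at 0 min, thus came from a group without replicate 4, the lowest number for these genes.

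The share of variance in log2 CPM over the 52 units differed between members. The replicate number accounted for 75.9% in C1qa, 88.2% in C1qb and 84.1% in C1qc, and the group for 10.1, 5.53 and 7.75%. For C3 the number accounted for 42.1% and the group for 42.6%, and for Cfb 33.8 and 36.2%. For Cfp they were 65.6 and 13.3%, and for C4b, on few counts, 38.9 and 31.2%. The medians over all tested genes were 33.9% for the number and 24.9% for the group. The C1q genes and Cfp thus lay above the median gene in the number's share alone, Cfb in the group's share, and C3 and C4b in both.

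As a description, members were correlated over the 52 units after the mean of each replicate number was subtracted. These units share libraries' depth and cultures. C3 and Cfb had a Pearson r of 0.93, C3 and Cfp 0.75, and Cfb and Cfp 0.78. The C1q genes had r between 0.90 and 0.93 with each other and between -0.66 and -0.33 with C3 and Cfb. These r pool all numbers, and the numbers differed. Bearing cells of replicate 1 were higher in both C1qc and C3, and those of replicate 4 lower in C1qc and higher in C3. In replicates 2 and 3 the C1qc ranges of bearing and other cells overlapped. Without the subtraction, the C1q genes had r between 0.05 and 0.17 with C3, between -0.28 and -0.18 with Cfb and between 0.36 and 0.49 with Cfp, so their relation to C3 and Cfp depended on this step. That of C3, Cfb and Cfp to each other stayed between 0.70 and 0.88. C4b had r of at most 0.05 with any other member after the subtraction. The 3 genes most like C3 were Aoah, a lipase that inactivates lipopolysaccharide (r = 0.98), the chemokine Ccl5 (0.98) and the stress-response gene Nupr1 (0.97). For Cfb they were Mlkl, the effector of necroptosis (0.97), Ms4a6d (0.96) and the peroxiredoxin Prdx5 (0.95). For Cfp they were Ifitm3 (0.89) and Ly6e (0.88), both known as interferon-induced genes, and the cytokine receptor chain Il2rg (0.85). Besides each other, C1qa was nearest to Ttyh3 (0.85), C1qb to Tmem176b (0.85), and C1qc to Tmem176b (0.94) and Itm2b (0.92). The highest r of any gene with C4b was 0.564 after the subtraction and 0.688 without it.

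Of 52 other complement genes, 37 were in the table and 24 were tested. By role, 4 of 7 classical initiators, 3 of 9 lectin pathway genes, 11 of 12 receptors and 6 of 16 regulators were tested, and 0 of 1 for factor D and 0 of 7 for the terminal components. Levels varied widely within a role. Among receptors, C3ar1, the receptor of the C3a fragment, ran from 1432 to 2819 CPM, and Itgam, the alpha chain of complement receptor CR3, from 153 to 664 CPM, while C5ar2 had a median of 26.6 CPM and Cr2 one of 0.354 CPM. After alpha-synuclein alone edgeR called 0 of 24 without the block, where 2.5% of all tested genes were called, and DESeq2 called 1, Lrp1. An unadjusted p under 0.05 was reached by 7, against 17.1% of all tested genes. The list's median log2 fold change was -0.14, against -0.04 over all tested genes.

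With the block, edgeR called 7 of the 24, 2 higher and 5 lower, where 19.2% of all tested genes were called, and the list's median was -0.18 against -0.05 over all tested genes. Refitted with 1 number left out at a time, the block called Lrp1 in 4 of 4 fits, Itgb2 in 3 (not without replicate 1, adjusted p = 0.0548), Susd4 in 2 (not without replicate 3 or 4), and C5ar1, Calr, C1qbp and Cd59a in 1 each. C5ar1 and Calr were called only without replicate 1, with adjusted p up to 0.147 and 0.108 otherwise, and C1qbp and Cd59a only without replicate 2, with adjusted p up to 0.378 and 0.176 otherwise. Itgb2, the beta chain of CR3, rose by 0.44 (SE 0.12, adjusted p = 0.00682) and was higher in 4 of 4 same-number pairs. Calr, calreticulin, which C1q can bind at the cell surface, rose by 0.38 (SE 0.12, adjusted p = 0.0273), in 4 of 4 pairs. Lrp1, an endocytic receptor that works with calreticulin, stood at 634, 307, 550 and 485 CPM in Untreated_Ctrl and at 381, 227.7, 323 and 205 CPM in aSyn_Donor. It was lower in 4 of 4 pairs and fell by 0.82 (SE 0.15, adjusted p = 0.000122). C5ar1, the receptor of C5a, fell by 0.47 (adjusted p = 0.0343) in 4 of 4 pairs. C1qbp, known as the gC1q receptor, fell by 0.28 (adjusted p = 0.0330), and Cd59a, which blocks the membrane attack complex, fell by 0.45 (adjusted p = 0.0215), each in 3 of 4 pairs.

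**Figure D5:**
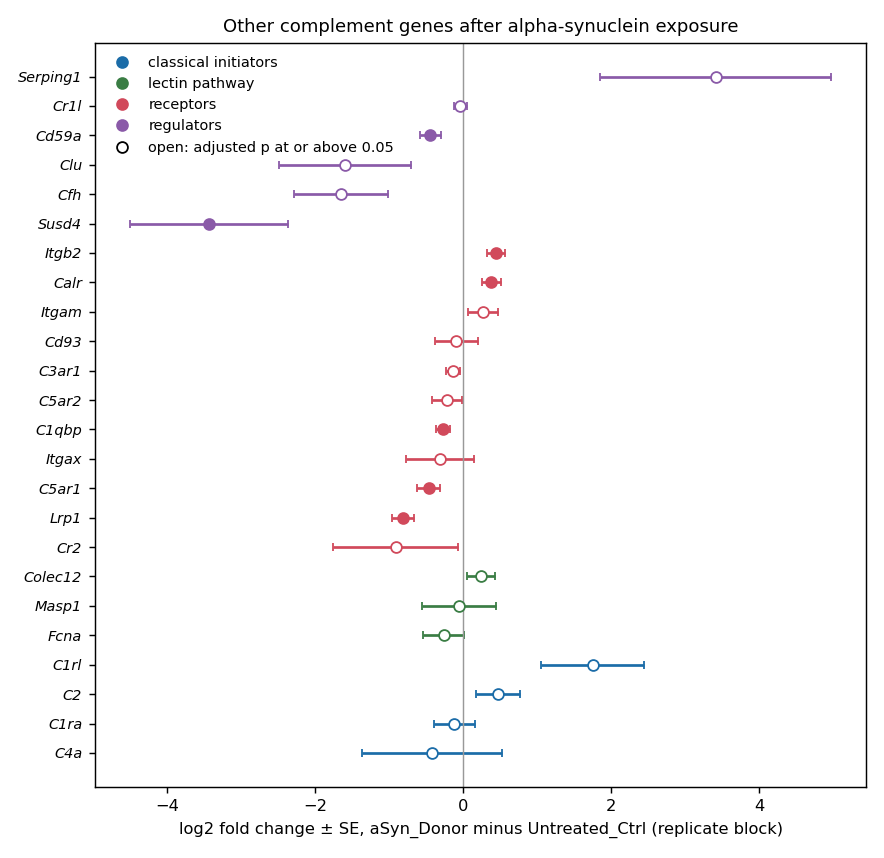
The log2 fold change ± SE by edgeR with the replicate block, aSyn_Donor minus Untreated_Ctrl, for 24 other complement genes, coloured by role. Filled markers passed an adjusted p of 0.05, which 7 genes did, and Lrp1 had the smallest adjusted p among them.

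Susd4, a complement inhibitor, was the 7th, with an adjusted p of 0.0203 on few counts: 1, 0, 34 and 108 in Untreated_Ctrl and 0, 1, 0 and 4 in aSyn_Donor. The summed level of 8 astrocyte markers was 11.3, 18.8, 77.7 and 139 CPM in the same untreated units and 13.9, 11.2, 16.7 and 29.3 CPM in aSyn_Donor, so the untreated units that held Susd4 also held most astrocyte RNA. With the block, 5 of those 8 markers and 4 of 7 markers of the oligodendrocyte lineage were called lower in aSyn_Donor, as were 10.2% of all tested genes. Of the 11 microglia markers, 3 were called lower and 1 higher, and of 4 tested neuron markers 1 was lower. Of the 2 neutrophil markers, 1 was called higher, as were 8.95% of all tested genes. The part of the astrocyte and oligodendrocyte-lineage markers in the Susd4 value was not tested. In the other marker sums, neurons reached 30.0 CPM, in untreated replicate 4, fibroblasts 27.5, monocytes 6.36 and lymphocytes 0.428 CPM. Endothelial markers summed to between 26.5 and 106 CPM. Of these, 1 of 3 was called higher in aSyn_Donor in both fits, as were 1.6% of all tested genes without the block and 8.95% with it.

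Lrp1 was also the most recurrent of the list in co-culture. With the block it was lower in Donors than in Acceptors at 0, 15, 30 and 150 min, by edgeR log2 fold changes of -0.62, -0.55, -0.64 and -0.52 with adjusted p of 0.0269, 0.0136, 0.00333 and 0.0265. Cd59a was lower at 15 and 30 min (-0.45 and -0.58), Itgb2 was higher at 15 min (0.44), C1rl, a relative of C1r, was higher at 15 min on low levels (means of 1.33 and 0.238 CPM), Fcna, ficolin A, was lower at 30 min (-0.82), and C1qbp was lower at 60 min (-0.36). These were 10 calls in 144 tests, near the 6.31% of all gene tests called with the block. Without the block edgeR called 0 of the 144, against 0.427% of all gene tests, and 9 had an unadjusted p under 0.05, against 9.13%. In the other comparisons the block gave 1 call, Susd4 in Acceptors at 0 min against Untreated_Ctrl, where its counts were 0 in the Acceptors.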

How the data were processed

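The authors deposited raw counts per gene symbol for 54 libraries, per the file headers. QuantSeq libraries, which read transcript ends, were used, per the labels' protocols. STAR, Partek, DESeq2 and the build mm10 are named without versions in the submitters' processing notes, and use of strand is not given in the sources used here. A deposited table of normalized values was not used here. Groups and replicate numbers came from the labels, which give replicate 1 passage 3, replicate 2 passage 1 and the others passage 2.

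Same-numbered untreated libraries were summed: their counts differed more than sampling noise allows (chi-square per degree of freedom 10.3 and 12.1) but less than other untreated pairs (24.2 to 288). edgeR 4.0.16 (R 4.3.3) was fitted to all 14 groups with TMM, a filterByExpr filter (at least 10 counts) and quasi-likelihood tests. It made 19 pairwise comparisons and 4 further tests, adjusted by Benjamini-Hochberg over 13169 genes and called under 0.05. The main fit had no block. Same-numbered units deviated together in all 69 pairs (correlation 0.199 to 0.764), so the numbers, which come from the sample titles, were treated as pairing the samples, and blocked values are given where they change a call. Nothing says that replicates came from separate animals, so p-values measure the spread between these samples. Replicate 4 holds at most 1 unit per group, so no comparison was tested within it. The sample titles name no sequencing run, so values without replicate 4 only leave that number out. Levels of log2 CPM for correlations used a prior count of 2. DESeq2 1.42.0, its size factors, no filter, only the groups compared, separate untreated libraries and leaving out each number were alternatives. The code was tested on simulated counts.

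The members, the other complement genes and the markers were chosen with earlier results of these data known. Named in the text are the 7 members, the other complement genes called in any comparison with or without the block (at most 10 each) and the 3 genes most correlated with each member. C3ar1, Itgam and Adgre5 were named after their values were seen. One result on another complement gene is not reported here.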

Additional observations from a re-analysis of the deposited data

Results flagged for a closer look

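Of 69 sets of 4 units, 9 held a value whose gap to the nearest other unit took up more of the range than Dixon's limit, and chance flags about 1 in 20 groups. Of these, 6 were low C1q values of replicate 4. C1qa was 450 CPM in Donors at 150 min and 501 CPM in Donors at 300 min, where the next lowest were 1385 and 1479 CPM. C1qb was 877 CPM in aSyn_Donor, 904 CPM in Donors at 150 min and 835 CPM in Donors at 300 min, and C1qc was 626 CPM in Donors at 300 min. These units are also those with the low sum of microglia markers described above.

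Replicate 2 gave the other 3. Cfb was 46.5 CPM in Untreated_Ctrl, and the next highest was 4.20 CPM. C4b was 0.782 CPM in aSyn_Donor and 1.46 CPM in Acceptors at 30 min, on 11 and 23 counts.

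One difference had opposite directions in the comparisons. C4b was lower in aSyn_Donor than in Untreated_Ctrl in every same-number pair and higher in Donors than in Acceptors at 300 min in every pair, at 4, 15 and 9 counts against 0, 6 and 0 in replicates 1, 2 and 4. The median log2 difference was 1.55 with a prior count of 2, which is set by that prior count and is not a measured fold. This difference was not tested by itself, and it rests on at most 36 counts per unit. In replicate 4, the untreated libraries held 7 and 0 counts against 1 in aSyn_Donor, so the order in that pair depends on the library.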

How the results depend on the processing

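Every main count of called members or other complement genes was 0, so an alternative could only keep 0 or leave it. Of these counts under an alternative, 111 stayed at 0 and 15 did not, and 13 of those 15 came from the replicate block. The 111 thus say only that nothing was called. For aSyn_Donor against Untreated_Ctrl the block called 2 of 7 members in place of 0, and between 1 and 4 when it was refitted without 1 replicate (4, 3, 1 and 1 without replicates 1 to 4). For Donors against Acceptors the replicate block called 3 of 42, and between 0 and 6 without 1 replicate (0, 0, 3 and 6). For the other complement genes the block called 7 of 24 in place of 0, and between 2 and 6 without 1 replicate (4, 6, 2 and 4), while DESeq2 called 1, and so did edgeR with the untreated libraries kept separate. In that comparison edgeR called 329 of 13169 tested genes in the main fit and 2524 with the block. With the untreated libraries kept separate it called 618 of 13222. No such share is given here for DESeq2 or for the blocked refits without 1 replicate, so their counts cannot be set against a background. The block changed no other count of called members, and the cause of these moves was not tested. Without replicate 3, Cfp in Donors against Acceptors at 0 min turned from 0.22 to -0.057 (SE 0.40), and to -0.0015 with the block (SE 0.24), and without any 1 replicate it lay between -0.057 and 0.521. Of single values, 387 kept their direction and side of the threshold and 45 passed it only in an alternative. Without centring on the replicate number, 1 of the 3 nearest genes was shared for each member except C1qa, with 2.

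The precision is set by 3 or 4 units per group and, for C4b, C1rl and Susd4, by counts near the floor of 3.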

Other observations

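Among all units, Cfb and C3 ordered the replicate numbers differently with and without alpha-synuclein. In Donors, the Cfb medians were 8.17, 37.2, 68.4 and 152 CPM in replicates 1 to 4, with replicate 4 highest. In Acceptors, replicate 2 was highest, at 27.4 CPM, and replicate 4 stood at 6.12 CPM. For C3, replicate 4 was lowest in Acceptors at 48.9 CPM and second in Donors at 491 CPM, while replicate 1 was lowest in Donors at 171 CPM. Cfp had replicate 3 highest and replicate 2 next in both populations. This was not tested, as each number gives 1 unit per group.

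C2, the classical-pathway protease gene next to Cfb, was not called. It shared with Cfb the high untreated value of replicate 2, at 96.0 CPM against 17.5, 17.2 and 9.76 CPM in replicates 1, 3 and 4, and it was higher after alpha-synuclein in the same 3 numbers, at 33.5, 28.4 and 22.1 CPM, and lower in replicate 2, at 68.4 CPM. Serping1, the C1 inhibitor, had 141 counts in aSyn_Donor of replicate 4 and at most 4 in the other 7 units of both groups, and was not called. C2 and Serping1 were named after their values were seen.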
